A study of Mus musculus with 6 samples.

Results

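The BMP receptor genes Bmpr1a, Bmpr1b, Acvr1 and Bmpr2, the Id genes Id1, Id2, Id3 and Id4, and the inhibitory Smad genes Smad6 and Smad7 were followed in the pregnant mouse myometrium with and without Tcf23. These 10 genes were chosen by name, and each matched 1 of the 55055 genes in the deposited tables. The knockout (KO) group comprised 3 pregnant mice in which Tcf23 had been disrupted with CRISPR/Cas9, and the wild-type (WT) group comprised 3 pregnant mice with intact Tcf23. Myometrium, the muscular wall of the uterus, was taken at E19.5 as the sample labels give it, and 1 poly(A)-selected, directional RNA-seq library was made per animal. The labels used here do not give the strain, the age of the mice, the exact Tcf23 lesion or the genotype of the fetuses. No label describes a Cre driver or a tissue-restricted allele.

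BMP ligands bring together type I receptors (Bmpr1a, Bmpr1b and Acvr1 encode those studied here) and type II receptors such as the Bmpr2 product, and the type II kinase activates the type I kinase. Type I receptors then phosphorylate Smad1, Smad5 and Smad9, which enter the nucleus with Smad4 and raise transcription of the Id genes, widely used as a readout of BMP signal strength. Smad6 and Smad7 are induced by the same signal in many cells and feed back to block it. Id proteins are helix-loop-helix (HLH) proteins that lack a DNA-binding region and hold E proteins (products of Tcf3, Tcf4 and Tcf12) away from DNA. Tcf23 encodes another HLH protein, described in cell assays as an inhibitor of E protein binding to DNA. In the uterus, BMP signalling is best known for its part in the decidua during early pregnancy.

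RefSeq start-site windows (GRCm38.p6) were read for letters tied to this pathway, 250 bases before the start and 30 from the start on. They were found for 8 of the 10 genes, and Id1 and Smad7 had no entry. The searched letters were GGCGCC, a GC-rich motif that BMP-activated Smads are known to bind, GTCTAGAC, the palindromic Smad motif, and CANNTG, the E-box bound by E protein dimers. Each reads the same on both strands. The 8 genes had 10 windows, with more than 1 for Bmpr1b. GGCGCC occurred in 1 window each of 4 of the 8 genes, and in 10.9% of all 32851 windows of this length. The 4 windows had 62.1 to 78.6% GC, and the 10.9% is not matched for GC content. The stretches holding it in Bmpr1a, Bmpr2 and Id2 are shown to compare its flanks, with GGCGCC in capitals, at chr14:34502727-34502756 (minus strand), chr1:59764162-59764191 (plus strand) and chr12:25096306-25096335 (minus strand).
Bmpr1a: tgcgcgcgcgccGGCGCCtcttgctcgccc
Bmpr2: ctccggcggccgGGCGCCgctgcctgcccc
Id2: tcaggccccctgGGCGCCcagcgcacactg

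The whole windows of Id4 and Smad6 are shown because they carry one Smad motif each and lie outside exons annotated upstream of the RefSeq start. Id4 (chr13:48260866-48261145, plus strand) holds GGCGCC in capitals, from position -148 relative to the start. Smad6 (chr9:64022030-64022309, minus strand) holds GTCTAGAC in capitals across the start itself, from position -4.
Id4: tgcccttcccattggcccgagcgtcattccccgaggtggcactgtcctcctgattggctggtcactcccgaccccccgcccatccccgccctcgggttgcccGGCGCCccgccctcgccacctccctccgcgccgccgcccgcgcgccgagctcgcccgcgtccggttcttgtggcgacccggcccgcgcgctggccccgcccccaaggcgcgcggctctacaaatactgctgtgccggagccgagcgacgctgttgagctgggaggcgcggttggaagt
Smad6: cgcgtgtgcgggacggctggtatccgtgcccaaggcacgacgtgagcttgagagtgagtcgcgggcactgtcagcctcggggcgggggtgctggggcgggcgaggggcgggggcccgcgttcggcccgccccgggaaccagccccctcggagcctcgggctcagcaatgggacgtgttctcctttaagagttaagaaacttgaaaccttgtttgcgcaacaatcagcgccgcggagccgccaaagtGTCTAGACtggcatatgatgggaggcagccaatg

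GTCTAGAC is rare, present in 0.192% of all windows. The E-box letters CANNTG were found in windows of 3 of the 8 genes, namely Bmpr1b, Id2 and Smad6, and in 70.1% of all windows. The Id3, Acvr1 and Bmpr1b windows held neither Smad motif. The shares over all windows count windows, not genes, and are not matched for GC content. No matches overlapped, and they describe letters only.

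Total counts ran from 39939686 to 65036402 in KO libraries and from 47345181 to 55236312 in WT libraries. Tcf23 had 0, 2 and 1 counts in KO replicates 1, 2 and 3 and 4203, 5970 and 3360 counts in WT replicates 1, 2 and 3, which matches the genotype labels. Smooth muscle markers were present in all libraries, and none of the 10 on the list was at 0. Their summed level was 15366 to 38076 CPM (counts scaled to the library's size) in KO and 27070 to 30970 CPM in WT, lowest in KO replicate 3 and highest in KO replicate 2. KO replicate 1 stood apart for the sum of decidual and placental markers, which was 400.1 CPM there, 91.2 and 24.6 CPM in KO replicates 2 and 3, and 26.1 to 61.2 CPM in WT. Tpbpa alone had 241 CPM in KO replicate 1. Members differed, as Prl8a2 had 71.7, 80.9 and 23.7 CPM in KO replicates 1, 2 and 3 and 3.66 to 16.9 CPM in WT. Prl3b1 and Psg21 were highest in WT replicate 2, at 4.23 and 7.36 CPM. Of the 12 genes on that list, Cts7 and Prl3d1 were at 0 in all 6 libraries. KO replicate 1 also had lower levels of genes with a long total of annotated exon and higher levels of genes with a short total. For the 1439 tested genes with over 10 kb of annotated exon, the median log2 difference from the WT mean was -0.37 there, 0.08 and -0.04 in KO replicates 2 and 3, and -0.02 to 0.02 in WT. For the 5111 with up to 2 kb it was 0.17 in KO replicate 1, -0.06 and 0.05 in KO replicates 2 and 3, and -0.02 to 0.02 in WT.

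None of the 10 genes passed the threshold between genotypes. All 10 had enough counts to be tested, and edgeR's quasi-likelihood test called 0 higher and 0 lower at an adjusted p under 0.05, against 0.0% of the 19599 genes tested called higher and 0.0204% lower. By unadjusted p, 3 of the 10 were under 0.05, with Id2 and Id3 (2) higher and Bmpr1a (1) lower in KO, where 5.27% of tested genes were higher and 3.29% lower. DESeq2 called 0 of the 10, with 1.19% of its genes higher and 0.646% lower, and limma-voom called 0 of the 10. CPM of the groups did not overlap for 1 gene that was higher (Id3) and 1 that was lower (Bmpr1a), against 7.22% and 7.01% of tested genes.

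The median log2 change, KO over WT, was -0.22 for the 4 receptor genes, 0.51 for the 4 Id genes and -0.14 for the 2 inhibitory Smad genes, with 0.01 for all genes tested. Of the receptors 3 of 4 had negative changes, with Bmpr1b positive, and of the Id genes 3 of 4 had positive changes, with Id1 negative. As a score per library (the median log2 difference from the WT mean), the receptors stood at -0.74, 0.06 and -0.24 in KO replicates 1, 2 and 3 and at 0.03, -0.05 and -0.05 in WT. The Id genes stood at 0.20, 1.06 and -0.06 in KO and at -0.03, 0.09 and -0.08 in WT, so one KO library was far above the rest and another was within the WT range. Among the KO libraries, receptors and Id genes had opposite signs in replicate 1 only. Both were above the WT mean in KO replicate 2 and below it in KO replicate 3. In WT the signs were opposite in replicates 1 and 2, with values close to the WT mean. The inhibitory Smads stood at -0.11, -0.14 and -0.15 in KO and at 0.03, -0.16 and 0.13 in WT. Without KO replicate 1 the receptor median was -0.08, and without KO replicate 2 it was -0.38. The median of the 6 Id and inhibitory Smad genes was 0.21 over all libraries, 0.01 without KO replicate 2 and 0.34 without KO replicate 3.

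**Figure D1:**
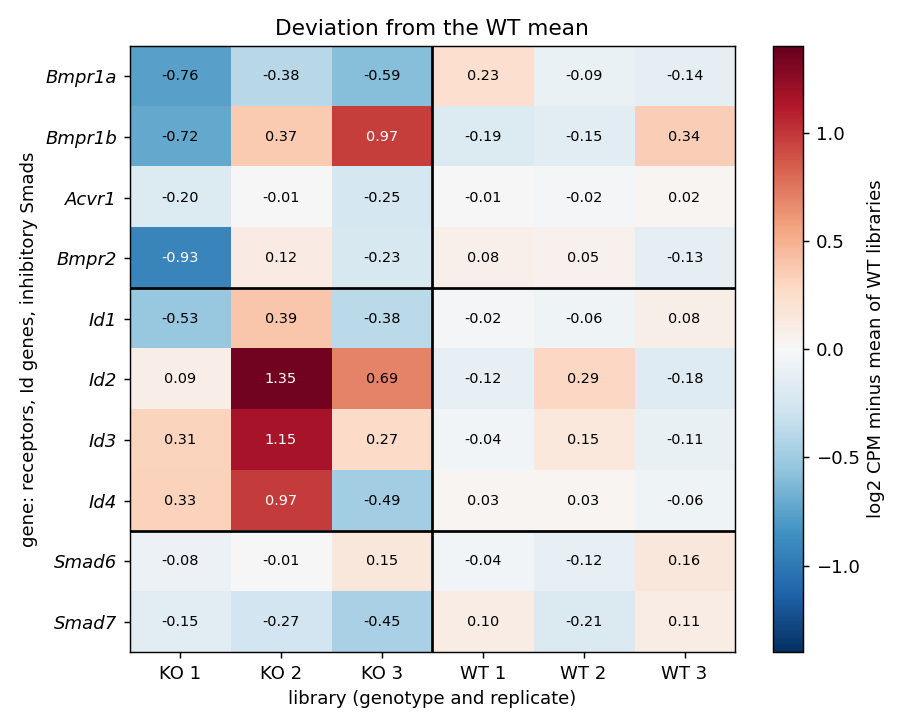
Each cell gives a gene's log2 CPM in 1 library minus the mean of the 3 WT libraries, with receptors, Id genes and inhibitory Smads in blocks from top to bottom and KO libraries left of WT libraries. Bmpr1a is below the WT mean in each KO library (-0.76, -0.38 and -0.59), Id2 and Id3 are above it in each, and Id2, Id3 and Id4 are highest in KO replicate 2.

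Bmpr1a, which had the most reads per length of the 3 type I receptor genes studied here, was the receptor whose groups stood apart (ENSMUSG00000021796, mm10 chromosome 14, 34410734 to 34503341, minus strand). It had 112.5, 146.5 and 126.7 CPM in KO replicates 1, 2 and 3, against 224.4, 179.7 and 173.2 CPM in WT replicates 1, 2 and 3. Each KO library was below each WT library. The means were 128.6 ± 17 CPM in KO and 192.5 ± 27.9 CPM in WT (SD, n = 3 each), a log2 change of -0.58 ± 0.17 (SE; edgeR adjusted p = 0.362, unadjusted p = 0.00902). DESeq2 gave an adjusted p of 0.1. With any 1 library left out, the log2 change ran from -0.68 to -0.45. Bmpr1a has 6.35 kb of annotated exon. For tested genes with 6 to 10 kb, median log2 differences from the WT mean were -0.18, 0.03 and -0.01 in KO replicates 1, 2 and 3. Those of Bmpr1a were -0.76, -0.38 and -0.59. The part of this length-related shift in the Bmpr1a value was not tested. In tissue RNA, fewer cells of a type and less RNA per cell cannot be told apart.

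Bmpr1b, the second type I receptor gene and a close relative of Bmpr1a, varied most among KO animals (ENSMUSG00000052430, chromosome 3, 141837136 to 142169425, minus strand). It had 6.08, 13 and 19.7 CPM in KO and 8.79, 9.06 and 12.7 CPM in WT. The lowest and the highest library were both KO, so the groups overlapped. The log2 change was 0.34 ± 0.39 (SE, edgeR adjusted p = 0.908), with -0.10 without KO replicate 3, 0.68 without KO replicate 1 and 0.53 without WT replicate 3. Acvr1, which encodes the type I receptor ALK2, was the steadiest receptor gene (ENSMUSG00000026836, chromosome 2, 58446434 to 58567157, minus strand). It had 24.7, 28.2 and 23.8 CPM in KO and 28.2, 28 and 28.8 CPM in WT, with a log2 change of -0.15 ± 0.12 (SE, edgeR adjusted p = 0.84). Only KO replicate 2 lay within the WT range.

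Bmpr2, the type II receptor dedicated to BMP and GDF ligands, was below the WT range in 2 of the 3 KO libraries (ENSMUSG00000067336, chromosome 1, 59763400 to 59879014, plus strand). It had 86.2, 177.9 and 139.9 CPM in KO replicates 1, 2 and 3, against 172.7, 170.2 and 149.6 CPM in WT. KO replicate 1 was the lowest of all 6, KO replicate 3 was also below each WT library, and KO replicate 2 was the highest. The log2 change was -0.29 ± 0.25 (SE, edgeR adjusted p = 0.864), with -0.04 without KO replicate 1 and -0.53 without KO replicate 2. Bmpr2 has 18 kb of annotated exon, and its log2 difference from the WT mean in KO replicate 1, -0.93, stands beside the median of -0.37 for genes over 10 kb in that library. The part of this length-related shift in the Bmpr2 value was not tested.

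**Figure D2:**
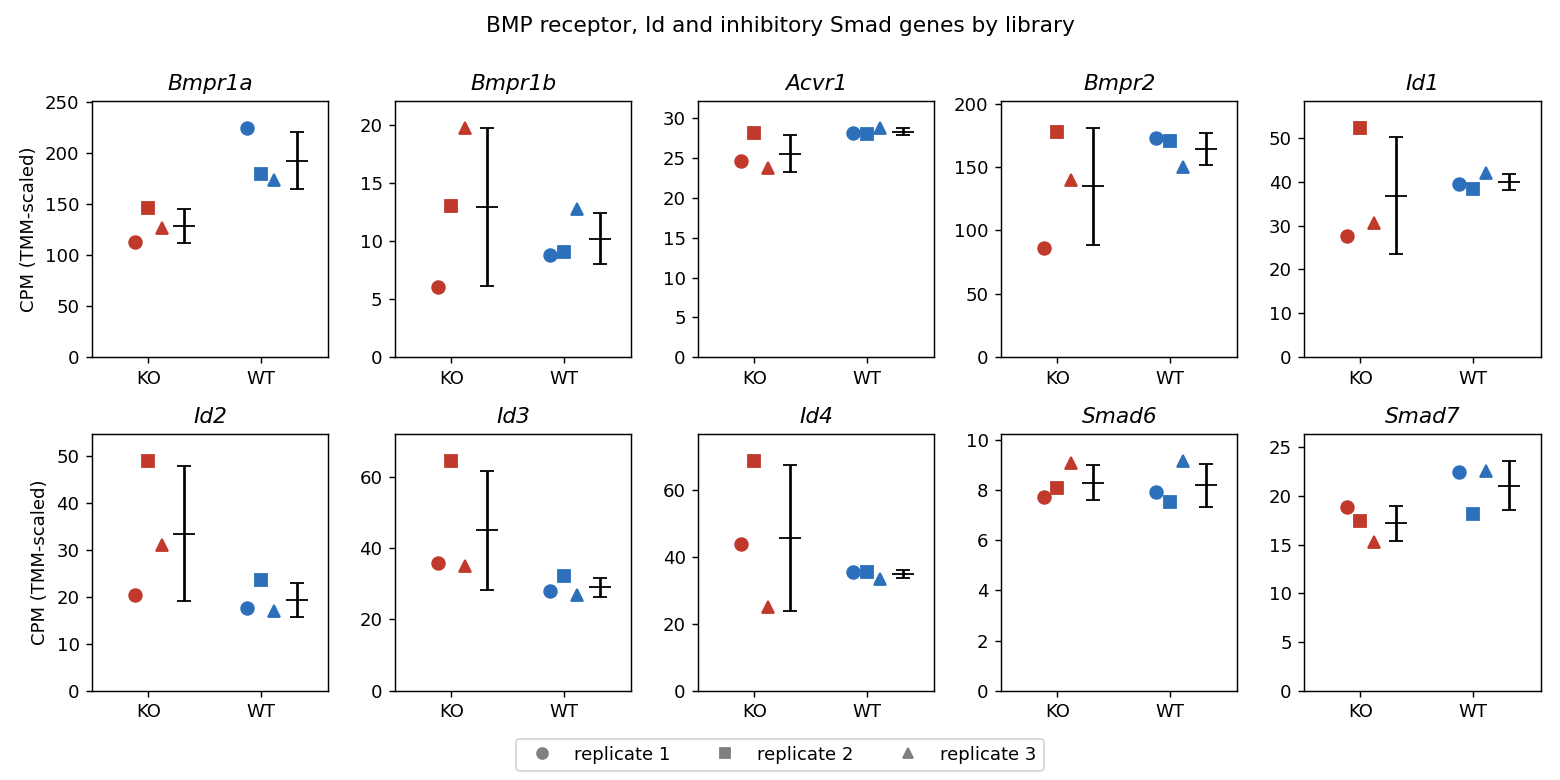
Points give CPM (TMM-scaled, linear axis from 0) of each gene in each library, KO in red left of WT in blue, with marker shape for the replicate number and bars for the mean ± SD (n = 3 each). Bmpr1a is lower and Id3 higher in each KO library than in each WT library, while for the other 8 genes the groups overlap.

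Levels of different genes were compared as CPM per kb of annotated exon. Among the 3 type I receptor genes studied here, Bmpr1a led with 20.2 ± 2.68 in KO and 30.3 ± 4.39 in WT. Acvr1 followed with 5.3 ± 0.483 in KO and 5.86 ± 0.0869 in WT, then Bmpr1b with 2.16 ± 1.14 in KO and 1.71 ± 0.37 in WT (SD, n = 3 each). The order was the same in both genotypes, and neighbours were separated by more than their SD. Within a library, the share of the summed level of these 3 genes held by Bmpr1a was 74.3, 74.2 and 70.8% in KO and 82.9, 79.5 and 77.1% in WT. These shares do not depend on the scaling between libraries, and the groups did not overlap. Acvr1 made up 21.5, 18.8 and 17.5% in KO and 13.7, 16.3 and 16.9% in WT, also without overlap. Shares of a sum depend on each other, and Acvr1 itself averaged 25.6 CPM in KO and 28.3 CPM in WT. The ratio of 2 genes did not overlap between the genotypes for 15.4% of all pairs of tested genes. The shares were not tested. Bmpr1b made up 4.27, 7 and 11.7% in KO and 3.46, 4.27 and 6.04% in WT, with overlapping groups. The total of these 3 genes was 27.7 ± 3.64 CPM per kb in KO and 37.9 ± 4.13 in WT. It leaves out other type I receptor genes. One of them, Acvrl1, had 19.8 CPM per kb in KO and 15.6 in WT. It was higher in each KO library, as were 7.22% of all tested genes. The shares and the total therefore hold for these 3 genes only.

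Bmpr2 shares the type II position with the activin receptor genes Acvr2a and Acvr2b. Of the 3 genes' summed CPM per kb, Bmpr2 held 56.1, 60.1 and 56.6% in KO and 62.7, 62.7 and 58.6% in WT, with overlapping groups. Acvr2a held 36.5 ± 2.33% in KO and 33 ± 2.56% in WT.

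Id3 was higher in each KO library than in each WT library (ENSMUSG00000007872, chromosome 4, 136143497 to 136145392, plus strand). It had 35.9, 64.3 and 34.8 CPM in KO replicates 1, 2 and 3, against 28.1, 32.1 and 26.8 CPM in WT replicates 1, 2 and 3. KO replicates 1 and 3 lay close above the highest WT library, and KO replicate 2 lay far above it. The means were 45 ± 16.7 CPM in KO and 29 ± 2.74 CPM in WT (SD, n = 3 each), a log2 change of 0.63 ± 0.25 (SE; edgeR adjusted p = 0.534, unadjusted p = 0.0357). Without KO replicate 2 the log2 change was 0.29. Id3 has 1.79 kb of annotated exon. In KO replicates 1, 2 and 3, genes up to 2 kb had median log2 differences from the WT mean of 0.17, -0.06 and 0.05. Those of Id3 were 0.31, 1.15 and 0.27. The part of this length-related shift in the Id3 value was not tested.

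Id2, which besides its BMP response is a known factor of natural killer and other innate lymphoid cells, had the largest fitted log2 change of the 10 genes (ENSMUSG00000020644, chromosome 12, 25093799 to 25097140, minus strand). It had 20.4, 48.9 and 31 CPM in KO and 17.7, 23.5 and 16.9 CPM in WT. KO replicates 2 and 3 exceeded all WT libraries, and KO replicate 1 lay within the WT range. The log2 change was 0.79 ± 0.31 (SE; edgeR adjusted p = 0.534, unadjusted p = 0.0362), and 0.41 without KO replicate 2. Natural killer and T cell markers were higher in KO as well. All 12 on the list had positive log2 changes, none was at 0, and their sum was 17.2 to 26.5 CPM in KO and 9.24 to 11 CPM in WT, highest in KO replicate 1 (26.5 CPM) where Id2 was lowest among KO libraries. Their part in the Id2 value was not tested.

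Id4 was high in KO replicate 2 and low in KO replicate 3 (ENSMUSG00000021379, chromosome 13, 48261228 to 48266026, plus strand). It had 43.8, 68.6 and 24.9 CPM in KO, against 35.7, 35.6 and 33.5 CPM in WT. The 3 KO libraries all lay outside the narrow WT range, 2 above and 1 below. The log2 change was 0.39 ± 0.32 (SE, edgeR adjusted p = 0.844), with -0.02 without KO replicate 2 and 0.69 without KO replicate 3. The coefficient of variation was 47.9% in KO and 3.5% in WT. Id1, the Id gene most often used to report BMP signalling, did not share the higher KO level of Id2 and Id3 (ENSMUSG00000042745, chromosome 2, 152736251 to 152737410, plus strand). It had 27.6, 52.2 and 30.6 CPM in KO and 39.4, 38.3 and 42.1 CPM in WT. KO replicates 1 and 3 were below all WT libraries and KO replicate 2 above all of them. The log2 change was -0.12 ± 0.24 (SE, edgeR adjusted p = 0.958), with 0.06 without KO replicate 1, -0.45 without KO replicate 2 and -0.00186 without KO replicate 3.

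KO replicate 2 was thus the highest library for Id1, Id2, Id3 and Id4. It also had the highest sums of smooth muscle, pericyte and endothelial markers and the lowest sum of uterine epithelial markers. Epithelial markers summed to 2167, 744.9 and 3788 CPM in KO replicates 1, 2 and 3 and to 1302 to 2934 CPM in WT (6 of 10 with positive log2 changes, none at 0). Pericyte markers summed to 447.8, 732.6 and 298.1 CPM in KO replicates 1, 2 and 3 and to 359 to 425.9 CPM in WT (5 of 5 with positive log2 changes, none at 0). Endothelial markers summed to 693.1, 922.3 and 509.5 CPM in KO and to 670.4 to 783 CPM in WT (7 of 11 with positive log2 changes, none at 0). The part of these cells in the Id values was not tested.

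Shares of the Id total were described as well, with no test. Per kb of exon, Id1 supplied 37.4, 37.9 and 40.6% of the Id total in KO, against 51.3, 47.3 and 54.2% in WT. Id3 supplied 31.5, 30.2 and 29.9% in KO and 23.7, 25.6 and 22.4% in WT. The groups did not overlap for either gene, a comparison chosen after its values were seen, and KO replicate 2 stood with the other KO libraries although its total was 118.8 CPM per kb, against 63.6 and 65 in KO replicates 1 and 3 and 66.1 to 69.8 in WT. Id2 supplied 16.5 ± 3.21% in KO and 11.7 ± 1.83% in WT, and Id4 supplied 14.3 ± 4.02% in KO and 13.4 ± 0.526% in WT, both with overlapping groups. As a plain ratio of counts, Id3 to Id1 was 1.3, 1.23 and 1.14 in KO and 0.714, 0.837 and 0.637 in WT. Ratios of this kind did not overlap between the genotypes for 15.4% of all pairs of tested genes. Id1 has 1.16 kb and Id3 1.79 kb of annotated exon, both within the class up to 2 kb, which was not divided further. The part of the length-related shift of KO replicate 1 in the Id3 to Id1 ratio was not tested. In level per kb the order was Id1, Id3, Id2 and Id4 in KO (31.7 ± 11.6, 25.1 ± 9.32, 13.7 ± 5.9 and 11.9 ± 5.69) and Id1, Id3, Id4 and Id2 in WT (34.4 ± 1.67, 16.2 ± 1.53, 9.07 ± 0.318 and 7.94 ± 1.47; SD, n = 3 each). Id1 and Id3 in KO, and Id2 and Id4 in both genotypes, differed by less than their larger SD.

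**Figure D3:**
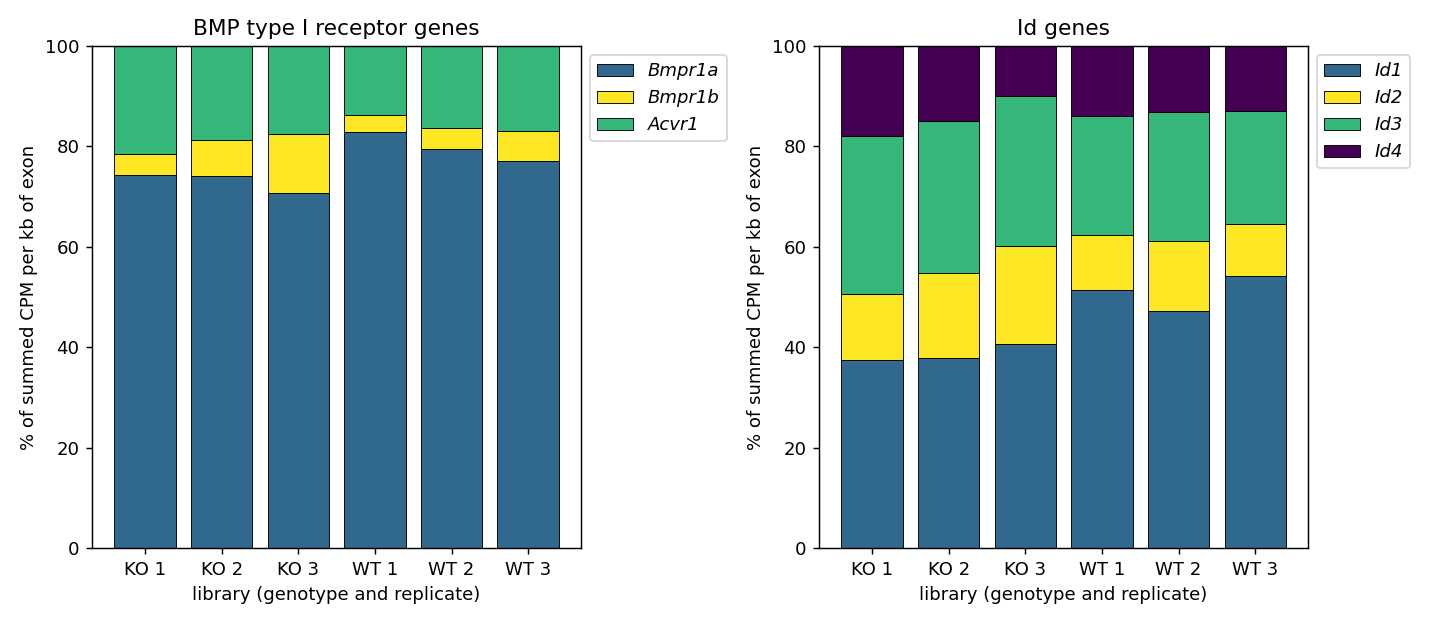
Stacked bars give each gene's share, in % of summed CPM per kb of exon, of the 3 type I receptor genes studied here (left) and of the 4 Id genes (right) in each library, with KO libraries left of WT libraries. Bmpr1a holds 70.8 to 74.3% in KO and 77.1 to 82.9% in WT, and Id1 holds 37.4 to 40.6% in KO and 47.3 to 54.2% in WT.

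The libraries of the genotypes overlapped for both inhibitory Smad genes. Smad6 (ENSMUSG00000036867, chromosome 9, 63953076 to 64022059, minus strand), which acts mainly on BMP type I receptors, had 7.72, 8.11 and 9.1 CPM in KO and 7.93, 7.52 and 9.15 CPM in WT. The groups overlapped throughout, and the log2 change was 0.02 ± 0.16 (SE, edgeR adjusted p = 0.993). Smad7 (ENSMUSG00000025880, chromosome 18, 75367529 to 75395935, plus strand), which blocks both TGF-beta and BMP receptors, had 18.9, 17.4 and 15.3 CPM in KO and 22.4, 18.2 and 22.6 CPM in WT. Only KO replicate 1 lay above the lowest WT library. The log2 change was -0.29 ± 0.15 (SE, edgeR adjusted p = 0.672). Neither gene was highest in KO replicate 2, where all 4 Id genes were.

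**Figure D4:**
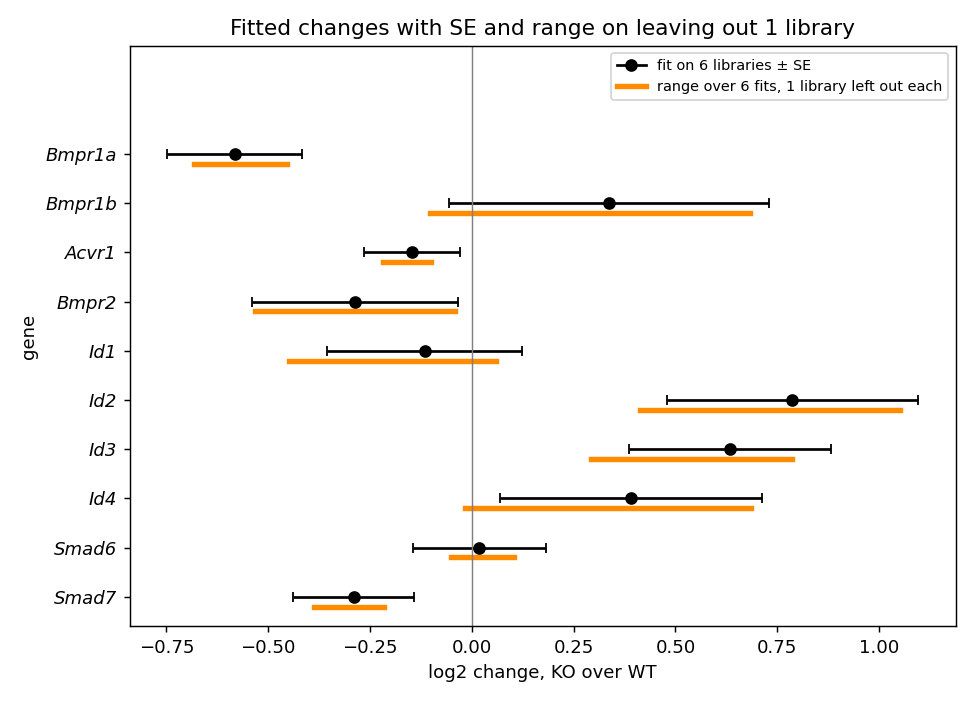
Black points give the log2 change, KO over WT, from edgeR on all 6 libraries with its SE, and orange bars the range over the 6 fits that each leave out 1 library. Bmpr1a stays below 0 (-0.68 to -0.45) and Id2 and Id3 above 0, while the bars of Bmpr1b, Id1, Id4 and Smad6 cross 0.

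Receptors were then set against targets directly, as the ratio of 2 genes' levels within a library. The ratio did not overlap between the genotypes for 5 of the 16 receptor-to-Id pairs, all lower in KO, and these involved only Id2 and Id3. It did not overlap for 1 of the 8 pairs of a receptor and an inhibitory Smad (Bmpr1a to Smad6, lower in KO), which makes 6 of 24 receptor-to-target pairs. Over all 45 pairs of the 10 genes it was 10, or 22.2%, where 15.4% of all pairs of tested genes did so. Pairs share genes, so these counts are not independent. Counts of Bmpr1a per count of Id3 were 3.13, 2.28 and 3.64 in KO, against 7.99, 5.6 and 6.46 in WT. This pair, 1 of the 5, adds nothing to the single-gene levels. With Bmpr1a lower and Id3 higher in each KO library, its ratio had to be lower in each. Counts of Bmpr2 per count of Id2 were 4.22, 3.64 and 4.52 in KO, against 9.78, 7.25 and 8.84 in WT. For Bmpr2 per Id1 the ratio was 3.12, 3.41 and 4.57 in KO and 4.39, 4.44 and 3.56 in WT, with overlapping groups. The pairs quoted were chosen after their values were seen. Bmpr2 and Bmpr1a have 18 and 6.35 kb of annotated exon, against 2.44 and 1.79 kb for Id2 and Id3. Median log2 differences from the WT mean in KO replicate 1 were -0.37 for genes over 10 kb and -0.18 for 6 to 10 kb. They were 0.11 for 2 to 4 kb and 0.17 for up to 2 kb. The 15.4% is not matched for length, and the part of this shift in these ratios was not tested.

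Of 73 other genes of the pathway and its partners, 64 had enough counts to be tested, and 0 were higher and 1 (Tcf23 itself) was lower by edgeR's adjusted p. By unadjusted p, 7 were under 0.05 with a higher and 7 with a lower KO level (Tcf23 among them), beside 5.27% and 3.29% of all tested genes. DESeq2 called 3 besides Tcf23, beside 1.19% of its genes higher and 0.646% lower. Among 13 tested BMP and GDF ligand genes, Bmp3, a ligand that opposes other BMPs, had 23.1 ± 2.97 CPM in KO and 7.66 ± 1.44 CPM in WT (SD, n = 3 each; log2 1.59 ± 0.18 SE, edgeR adjusted p = 0.0596, DESeq2 adjusted p = 4.13e-10). Bmp7 had 1.37 ± 0.493 CPM in KO and 0.628 ± 0.125 CPM in WT. Among 12 tested antagonist genes, Grem1, whose product binds BMPs outside the cell, had 36, 46 and 30 counts in KO and 2, 1 and 3 in WT. The ratio of summed levels was 17.9 (exact 95% interval 7.99 to 49.9, counting error only), with an edgeR adjusted p of 0.0567 and a DESeq2 adjusted p of 9.89e-06.

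Of 7 tested related receptor genes, 3 had an unadjusted p under 0.05, of which 2 were higher in KO, beside 5.27% of all tested genes higher and 3.29% lower. Acvrl1, the endothelial type I receptor ALK1, had 76.7, 96.7 and 80 CPM in KO and 61.4, 71.5 and 67.3 CPM in WT. Tgfbr1, the TGF-beta type I receptor, had 50.2, 69.5 and 61.4 CPM in KO and 79.7, 76.4 and 77.9 CPM in WT, and Amhr2, the receptor of anti-Müllerian hormone, averaged 0.902 CPM in KO and 0.361 CPM in WT. Of 5 tested co-receptor genes, Bambi, which encodes a receptor decoy that is itself BMP-responsive, had 7.04, 8.15 and 9.1 CPM in KO and 5.29, 5.68 and 5.03 CPM in WT (log2 0.60 ± 0.17 SE, edgeR adjusted p = 0.373). Of 12 tested Smads and regulators, the transcriptional repressor Skil had a log2 change of -0.56 and the ubiquitin ligase Smurf2 of -0.38. The signal carriers Smad1 and Smad5 had log2 changes of 0.01 ± 0.17 and -0.18 ± 0.15 (SE). The E protein genes Tcf3, Tcf4 and Tcf12 encode partners of the Id proteins. Their log2 changes were 0.11, 0.06 and -0.24, with SEs of 0.12, 0.16 and 0.13. Tcf12 had 68, 86.4 and 80.3 CPM in KO and 93.3, 91.6 and 92.2 CPM in WT (edgeR adjusted p = 0.718). It was lower in each KO library, as were 7.01% of all tested genes.

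Other genes known as BMP-responsive in bone, limb or vessel cells went both ways, with 3 of 11 under an unadjusted p of 0.05, of which 1 was higher in KO, beside the same 5.27% and 3.29% of all tested genes. Msx2 had 0.808, 0.685 and 0.512 CPM in KO and 1.86, 1.95 and 1.03 CPM in WT, and Tnfrsf11b, the gene of the decoy receptor osteoprotegerin, had 74.5, 59.9 and 33.8 CPM in KO and 146.9, 90.3 and 117.1 CPM in WT. Both were lower in each KO library, as were 7.01% of all tested genes. The DESeq2 adjusted p was 0.0435 for Tnfrsf11b, and its edgeR adjusted p was 0.362. Runx2 averaged 5.51 CPM in KO and 3.21 CPM in WT, a value that is uncertain because 5 annotated genes overlap it with counts of 126.1% of its own. The vascular targets Hey1, Hey2 and Atoh8 had log2 changes of -0.16, 0.02 and -0.03.

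Likeness across the 6 libraries was measured as the root mean square difference of centred log2 CPM over 15054 tested genes with a mean of at least 1 CPM. Nearest to Bmpr1a were Arid4b (0.07), 9030624G23Rik (0.09) and Cubn (0.10). Nearest to Bmpr2 were Rev3l (0.04), Zkscan8 (0.06) and Nbea (0.06). Nearest to Id1 were Ralgapa1 (0.07), Gbp4 (0.07) and Heatr5b (0.08). Among the 10 genes themselves, Acvr1 and Smad7 were the nearest pair (0.15), Id2 and Id3 differed by 0.21, and Bmpr2 and Id1 by 0.21. The measure is not scaled by a gene's spread, so genes that vary little lie near each other. The highest library was 1.21-fold the lowest for Acvr1 and 1.47-fold for Smad7.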

How the data were processed

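The authors deposited raw counts by Ensembl gene, library by library, and a table of normalized values, a signal equal to the count times 1 constant per library (0.804 to 1.26). FastQC 0.73, HISAT2 2.2.1, HTSeq 0.9.1, DESeq2 2.11.40.7 and mm10 are named in the submitters' processing notes, with no role given. Neither the annotation release nor whether counting used strand is given in the sources used here. Counts of genes overlapping the 10 were at most 0.33% of their own.

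Tests on the counts were run in R 4.3.3 using edgeR 4.0.16 (filterByExpr, TMM, quasi-likelihood test of genotype, Benjamini-Hochberg adjustment over 19599 genes, threshold 0.05). SE is that of the log2 change. CPM are relative to TMM-scaled library sizes, but marker sums use unscaled totals. Exon lengths and kb are from GENCODE M21 (mm10), and mm10 gene positions from the deposited table, printed counting from 1. Scores and likeness use log2 CPM with a prior count of 2. DESeq2 1.42.0 and limma 3.58.1 (voom, and log2 of the normalized value plus 1) were alternatives. The pipeline was tested on simulated data.

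The genes and lists were chosen with earlier results of these data known. All 10 genes are named. Of each other list, up to 4 genes with an unadjusted p under 0.05 are named, then genes added after their values were seen (Smad1, Smad5, Tcf3, Tcf4, Tcf12, Hey1, Hey2 and Atoh8, given for their roles), and the 3 genes most like Id1, Bmpr1a and Bmpr2. A gene that this rule also picks is not reported here.

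Replicates of a group differed far beyond counting noise, and KO replicates more than WT replicates. Chi-square divided by its degrees of freedom was 176.8 to 233.9 between KO libraries and 36.3 to 83 between WT libraries. Replicate numbers are shared between genotypes in the sample titles. Same-numbered libraries deviated together (correlations across genes 0.147, 0.196 and 0.217), while differently numbered ones had correlations of -0.223 to 0.0611. No label used here says that the animals were paired. The main fit therefore took genotype only, and an alternative fit took the replicate number as a block. This block changed no call among the 10 genes.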

Additional observations from a re-analysis of the deposited data

How the results depend on the processing

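None of the 10 genes passed the threshold under any of 14 alternatives, and the smallest adjusted p was 0.1 (Bmpr1a, DESeq2). The direction held in 134 of 140 gene results. The 6 reversals came from leaving out 1 library, with log2 changes of -0.10 to 0.68 for Bmpr1b, -0.45 to 0.0604 for Id1, -0.0178 to 0.69 for Id4 and -0.052 to 0.10 for Smad6 over those fits. Smad6 turned to -0.052 without KO replicate 3, -0.00223 without WT replicate 1 and -0.04 without WT replicate 2. The cause was not tested. Over all genes, with 0 higher and 4 lower, upper-quartile scaling called 4 higher and 8 lower, no filter 47 and 34, and DESeq2 245 and 133. With the replicate number as a block, 2 were higher and 5 lower, and the unadjusted p was 0.0177 for Bmpr1a, 0.0096 for Id2 and 0.0142 for Id3. Leaving out 1 library gave 0 to 3 higher and 1 to 4 lower. Of the other pathway genes besides Tcf23, 0 passed, against 2 with upper-quartile scaling and 2 with no filter (Bmp3 and Grem1) and 3 by DESeq2 (also Tnfrsf11b). KO libraries differed in tissue content and in the level of genes with a long total of annotated exon. With these differences and 3 animals per genotype, a p that misses the threshold does not show equal levels.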

Other observations

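Other BMP pathway genes outside the 10 were also high in KO replicate 2, chosen here after their values were seen. Fst, whose product follistatin binds activins and some BMPs, had 31.3, 238.8 and 49.7 CPM in KO replicates 1, 2 and 3, against 58.8, 56.8 and 27.5 CPM in WT. Smad9, a BMP-regulated Smad that is itself a target of the pathway, had 0.886, 6.45 and 1.39 CPM in KO and 2.04, 1.7 and 1.03 CPM in WT. The antagonist gene Chrdl1 had 27.6, 97.3 and 28 CPM in KO and 58.3, 52.1 and 40.9 CPM in WT. Of the 64 other pathway genes tested, 23 were highest in KO replicate 2, beside 22.2% of all tested genes.

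The summed level of 6 mesothelial markers was 81.7 to 100.9 CPM in KO and 137.8 to 237.4 CPM in WT, with 1 of 6 at a positive log2 change and none at 0. Of the 6, Msln alone had groups that did not overlap, with 27.8, 13.9 and 18.1 CPM in KO and 72.3, 41 and 65 CPM in WT. Upk3b, Lrrn4 and Upk1b were high in WT replicates 1 and 2 and as low in WT replicate 3 as in KO, and Wt1 and Krt5 overlapped. Bmpr1a was lower in each KO library. The part of these cells in the Bmpr1a value was not tested.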
